A study of Mus musculus with 6 samples.

Results

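The chemokine receptor genes Ccr1, Ccr2, Ccr3, Ccr7, Ccrl2, Cxcr4 and Cx3cr1 were followed through macrophage activation in the absence of miR-155. They were taken as every probe set whose only gene symbol was 1 of these 7 names, which gave 12 of the 45037 probe sets tested and 7 of the 20967 genes with a probe set of 1 symbol. Ccr2 had 4 probe sets, Ccr1 and Cx3cr1 had 2 each, and the other genes had 1 each.

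Bone marrow-derived macrophages (BMDM) came from miR-155 knock-out (KO) mice, strain B6.Cg-Mir155tm1.1Rsky/J on the C57BL/6J background, in which the microRNA is deleted in the germline. Marrow was grown in L929 cell supernatant, a source of macrophage colony stimulating factor, replated on day 7 and kept for 24 h in 1 of 3 conditions. KO M1 macrophages received LPS (100 ng/ml by the sample labels, where the study's methods state another dose) and IFN-γ (20 ng/ml), KO M2 macrophages received IL-4 (20 ng/ml), and KO M0 macrophages received medium alone. Each condition had 2 Affymetrix mouse expression arrays, named here mouse 1 and mouse 2 after the replicate number in the titles, and a further KO sample was left out of the study for RNA quality. No source states that a number stands for the same animal in all 3 conditions. All 6 arrays lacked miR-155, so no value here measures what the loss of miR-155 does, and the age of the mice was not given in the sources used here. In a bulk RNA sample, fewer cells that carry a transcript and less transcript per cell cannot be told apart.

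Chemokine receptors are membrane-spanning receptors that couple to Gi proteins and steer leukocytes along gradients of small secreted proteins, the chemokines. Ccr2 and its ligand Ccl2 let monocytes leave the bone marrow, Ccr1 and its ligands Ccl3 and Ccl5 draw them into inflamed tissue, Cxcr4 and Cxcl12 hold cells in the marrow, and Ccr7 leads dendritic cells to lymph nodes through Ccl19 and Ccl21. Cx3cr1 binds fractalkine (Cx3cl1) and marks patrolling monocytes and many tissue macrophages, and Ccr3 binds the eotaxins, among them Ccl11 and Ccl24, and is best known from eosinophils. Ccrl2 is an atypical receptor that binds chemerin (Rarres2) without signalling itself, and presents it to the chemerin receptor Cmklr1.

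The RNA that all samples lacked is printed first, because it defines the cells. It is mouse miR-155-5p (RefSeq, GRCm38.p6, chr16:84714143-84714165, plus strand), with the seed, bases 2 to 8, in capitals.
mmu-miR-155-5p: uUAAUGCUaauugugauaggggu
The promoters of Ccrl2, Ccr3 and Cx3cr1 are shown because these genes differed most clearly between conditions. Each is the 300 bases that run 5′ to 3′ along the gene, 250 before and 50 after its annotated start, from RefSeq on GRCm38.p6; 6 of the 7 receptors had an entry, and Ccr7 had none. They lie at chr9:111057469-111057768 (minus strand) for the farthest upstream of the 3 Ccrl2 starts, chr9:124021721-124022020 (plus strand) for Ccr3 and chr9:120068247-120068546 (minus strand) for Cx3cr1. Capitals mark motif matches.
Ccrl2 promoter: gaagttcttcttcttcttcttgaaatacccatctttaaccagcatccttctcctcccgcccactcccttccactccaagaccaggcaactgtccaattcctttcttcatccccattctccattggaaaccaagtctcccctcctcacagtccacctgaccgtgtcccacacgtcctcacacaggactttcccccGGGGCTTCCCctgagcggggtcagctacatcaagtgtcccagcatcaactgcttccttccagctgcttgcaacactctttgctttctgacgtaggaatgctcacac
Ccr3 promoter: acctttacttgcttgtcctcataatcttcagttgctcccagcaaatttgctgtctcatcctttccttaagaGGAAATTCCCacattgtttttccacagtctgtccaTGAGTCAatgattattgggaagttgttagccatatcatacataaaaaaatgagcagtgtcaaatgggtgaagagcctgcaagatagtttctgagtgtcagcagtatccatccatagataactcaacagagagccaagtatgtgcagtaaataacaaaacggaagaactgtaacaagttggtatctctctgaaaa
Cx3cr1 promoter: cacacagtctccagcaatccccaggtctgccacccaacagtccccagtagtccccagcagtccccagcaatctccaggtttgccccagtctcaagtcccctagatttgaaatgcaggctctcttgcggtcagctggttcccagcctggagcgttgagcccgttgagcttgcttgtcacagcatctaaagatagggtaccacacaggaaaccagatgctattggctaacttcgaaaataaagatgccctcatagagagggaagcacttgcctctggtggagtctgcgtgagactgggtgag
The motifs searched on both strands were NF-kB (by its usual consensus), the STAT6 site TTCNNNNGAA, the interferon-stimulated response element GAAANNGAAA, the PU.1 site GAGGAAGT, the AP-1 site TGANTCA and the TATA box TATAAA. In the Ccrl2 promoter the capitals are an NF-kB match that begins 56 bases before the start. In Ccr3 they are an NF-kB match 179 bases before the start and an AP-1 match 144 bases before it, and Cx3cr1 held none of these letters in this window. An NF-kB match was present in 8.46% and an AP-1 match in 7.81% of the 32851 mouse promoters of the same length. The Ccr1 promoter also held an NF-kB match, 74 bases before its start. No receptor promoter held a STAT6, interferon-response or PU.1 match, which are found in 6.95%, 3.44% and 3.2% of all promoters. A match here describes the letters of the sequence and is not a measured binding site.

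The arrays carried macrophage transcripts. All 10 macrophage markers were above the array median on every array, and Csf1r, the receptor for macrophage colony stimulating factor, read 15016 and 15214 in KO M1, 14988 and 14274 in KO M2 and 14445 and 13937 in KO M0. Other marker lists passed the array median in part. On both KO M1 arrays, 6 of 6 monocyte, 4 of 8 neutrophil and 5 of 10 T and NK cell markers did. So did 4 of 7 dendritic cell and 3 of 6 B cell markers. The counts were 2 of 8 for mast cells and basophils, 2 of 8 for fibroblasts and 0 of 6 for eosinophils. Array medians ran from 38.01 to 40.82. The 2 mice correlated at r = 0.9921 in KO M1, 0.9950 in KO M2 and 0.9962 in KO M0 across probe sets. The log2 ratio of 3′ to 5′ control probes for Gapdh was lowest in KO M0, at 0.09 and 0.15 in KO M1, 0.20 and 0.11 in KO M2 and -0.08 and -0.07 in KO M0. For beta-actin it was highest in KO M2, at 0.19 and 0.19 in KO M1, 0.32 and 0.23 in KO M2 and 0.15 and 0.16 in KO M0. The part of RNA quality in the results was not tested.

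Across the 12 receptor probe sets, KO M1 vs. KO M0 gave 3 called higher (Ccrl2, Ccr7 and 1 of Cx3cr1) and 1 called lower (Ccr3), where a call is a limma Benjamini-Hochberg adjusted p under 0.05 over all probe sets. Of all probe sets, 2.76% were called higher and 4.32% lower in this comparison. KO M2 vs. KO M0 gave 0 called higher and 1 called lower (Ccrl2), against 3.61% and 3.57% of all probe sets. KO M1 vs. KO M2 gave 3 called higher (Ccrl2 and both of Cx3cr1) and 1 called lower (Ccr3), against 5.31% and 7.63% of all probe sets. At an unadjusted limma p under 0.05, the receptor counts higher and lower were 4 and 1 in KO M1 vs. KO M0 (9.84% and 10.5% of all probe sets), 0 and 5 in KO M2 vs. KO M0 (9.68% and 10.03%) and 6 and 3 in KO M1 vs. KO M2 (12.8% and 12.6%). The median log2 change over the 12 probe sets was 0.30, -0.27 and 0.49 in these comparisons, and 0.03, -0.02 and 0.05 over all probe sets. The comparisons draw on the same 6 arrays, so each pair of them shares a group.

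These counts moved when an array was left out. The condition that loses an array is then a single array, which adds nothing to the spread and is assumed to vary like the other conditions. Without KO M1 mouse 1, KO M1 vs. KO M0 gave 5 receptor probe sets called higher and 1 lower, against 2.19% and 3.53% of all probe sets. Without KO M1 mouse 2 it gave 1 higher and 5 lower, against 3.36% and 4.41%. The count of 3 called higher also became 1 without any 1 of the KO M2 or KO M0 arrays, while the count called lower stayed at 1. Of all probe sets, 0.759% to 2.15% were called higher and 1.5% to 3.86% lower in those fits. KO M1 vs. KO M2 gave 7 higher and 1 lower without KO M1 mouse 1, against 4.45% and 6.23% of all probe sets, and 3 higher and 4 lower without KO M1 mouse 2, against 5.39% and 7.03%. KO M2 vs. KO M0, whose spread is shared with KO M1, gave 2 higher and 4 lower without either KO M1 array, against 4.74% and 4.95%.

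**Figure D1:**
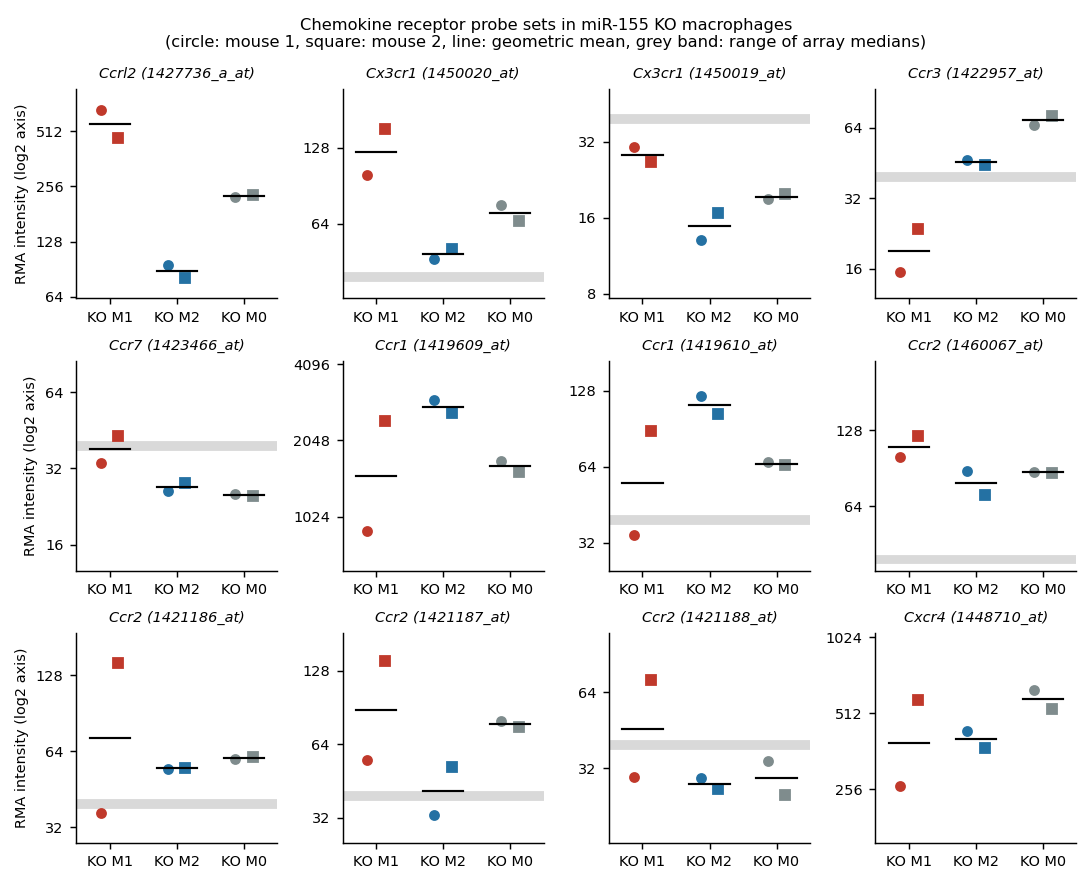
RMA intensity of each of the 12 receptor probe sets on a log2 axis, in KO M1, KO M2 and KO M0; circles are mouse 1, squares mouse 2, lines geometric means, and the grey band spans the 6 array medians. Ccrl2 is highest in both KO M1 arrays and lowest in both KO M2 arrays, while in both Ccr1 and 2 of the 4 Ccr2 probe sets the KO M1 mice lie on either side of KO M0.

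Ccrl2 moved in opposite directions under the 2 stimuli. Its intensity was 671 and 470.4 in KO M1, 95.1 and 81.3 in KO M2, and 224 and 229.7 in KO M0. No value of 1 condition overlapped those of another, and the order KO M1, KO M0, KO M2 held within either number. Ccrl2 rose in KO M1 vs. KO M0 by 1.31 ± 0.18 on the log2 scale (SE, n = 2 arrays per condition, limma adjusted p = 0.00326), a fold of 2.48. It fell in KO M2 vs. KO M0 by 1.37 ± 0.18 on the log2 scale (limma adjusted p = 0.00261), or 2.58-fold. KO M1 exceeded KO M2 by 6.39-fold, a log2 difference of 2.68 with a 95% interval of 2.27 to 3.08 (limma adjusted p = 3.65e-05). Each of these calls held when any 1 of the 6 arrays was left out, with a highest adjusted p of 0.0436, 0.0337 and 0.000873.

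Cmklr1, the signalling chemerin receptor and so the partner of Ccrl2, ran the same way in KO M1 vs. KO M2. It read 580.1 and 466 in KO M1, 262 and 168 in KO M2, and 337 and 287 in KO M0, with the KO M0 values between the other groups. Only KO M1 vs. KO M2 passed the test, at a log2 change of 1.31 ± 0.21 (SE, n = 2, limma adjusted p = 0.0045). Chemerin itself, measured by the Rarres2 probe set, read 140.8 and 141 in KO M1, 132 and 132 in KO M2 and 148 and 136 in KO M0, and the KO M1 values lay within those of KO M0.

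Cx3cr1, the fractalkine receptor, was also highest in KO M1 and lowest in KO M2. Its brighter probe set (1450020_at) read 99.2 and 152 in KO M1, 46.5 and 50.7 in KO M2 and 75.5 and 65.2 in KO M0, with no overlap between conditions. The log2 change in KO M1 vs. KO M2 was 1.34 ± 0.20 (SE, n = 2, limma adjusted p = 0.00254), a fold of 2.53, and the call held without any 1 array. In KO M1 vs. KO M0 it was 0.81 ± 0.20 (limma adjusted p = 0.0456), a fold of 1.75. That call was lost with the mouse number as a block (adjusted p = 0.0658), with KO M1 and KO M0 alone in the fit (adjusted p = 0.0768) and in 5 of the 6 fits that left out an array, where the adjusted p reached 0.272; it held only without KO M1 mouse 1. KO M2 vs. KO M0 gave -0.53 with a 95% interval of -0.98 to -0.08, which was not called (limma adjusted p = 0.173). It was called with KO M2 and KO M0 alone in the fit (limma adjusted p = 0.0391).

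The second Cx3cr1 probe set (1450019_at) was below the array median on all 6 arrays. It read 30.3 and 26.6 in KO M1, 13.1 and 16.7 in KO M2 and 18.9 and 19.8 in KO M0. It kept the same order of conditions without overlap, and was called in KO M1 vs. KO M2 at a log2 change of 0.94 ± 0.15 (SE, n = 2, limma adjusted p = 0.00395). KO M1 vs. KO M0 was 0.56 and was not called (limma adjusted p = 0.067). The ligand Cx3cl1 was not called in any comparison, with intensities of 75.2 and 82.6 in KO M1, 70.8 and 74.8 in KO M2 and 61.7 and 75.5 in KO M0.

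Markers of monocytes, which carry Cx3cr1 and Ccr2, were mostly not called against KO M0. Of 6 measured monocyte markers, 2 rose in KO M1 vs. KO M0, Treml4 among them, where 2.76% of all probe sets did. The other 4 were not called, and the median log2 change over the 6 was 0.03. The summed intensity of the 6 markers was 1846 and 1805 in KO M1, 1447 and 946 in KO M2 and 1851 and 1274 in KO M0, so the KO M1 and KO M0 sums overlapped. In KO M2 vs. KO M0, 0 of the 6 rose and 1 fell, against 3.61% and 3.57% of all probe sets. The part of these markers in the receptor values was not tested.

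Ccr3, the eotaxin receptor, was lowest in KO M1. It read 15.6 and 23.6 in KO M1, 46.8 and 44.5 in KO M2 and 65.7 and 72 in KO M0. Both KO M1 values were below the array median, both KO M2 values were just above it, and the conditions did not overlap. Ccr3 fell in KO M1 vs. KO M0 by 1.84 ± 0.19 on the log2 scale (SE, n = 2, limma adjusted p = 0.000821), or 3.59-fold. It fell in KO M1 vs. KO M2 by 1.25 ± 0.19 (limma adjusted p = 0.00287), or 2.38-fold, and both calls held without any 1 array. KO M2 vs. KO M0 was -0.59 with a 95% interval of -1.02 to -0.16 and was not called (limma adjusted p = 0.114), but was with KO M2 and KO M0 alone in the fit (limma adjusted p = 0.0191).

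Markers of eosinophils, the cells best known for Ccr3, were dim on these arrays. None of the 6 measured eosinophil markers was above the array median on both arrays of any condition. Their summed intensity was 110.2 and 115 in KO M1, 112 and 119 in KO M2 and 103 and 107 in KO M0. None was called in a comparison by limma. At an unadjusted p under 0.05 there were 0 in KO M1 vs. KO M0, against 9.84% higher and 10.5% lower of all probe sets. There was 1 higher in KO M2 vs. KO M0, against 9.68%. In KO M1 vs. KO M2, 1 was higher and 1 lower, against 12.8% and 12.6%. The part of eosinophils in the Ccr3 values was not tested.

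Ccr7, the receptor for lymph node chemokines, was dim and had the smallest change of the called receptors in KO M1 vs. KO M0. It read 33.6 and 43.1 in KO M1, 26.1 and 28.1 in KO M2 and 25.4 and 25 in KO M0. Only the KO M1 array of mouse 2 was above its array's median, although both KO M1 values exceeded all others. The log2 change in KO M1 vs. KO M0 was 0.59 ± 0.15 (SE, n = 2, limma adjusted p = 0.0466), a fold of 1.51. The call was lost with the mouse number as a block (adjusted p = 0.0634), with KO M1 and KO M0 alone in the fit (adjusted p = 0.074) and in 5 of 6 fits that left out an array, with an adjusted p of up to 0.232; it held only without KO M1 mouse 1. KO M1 vs. KO M2 was 0.49 (limma adjusted p = 0.0635) and KO M2 vs. KO M0 was 0.10 (limma adjusted p = 0.787).

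Dendritic cell markers gave 0 calls among 7 measured in KO M1 vs. KO M0 by limma. At an unadjusted p under 0.05, 2 of these markers were higher, as were 9.84% of all probe sets. Their summed intensity was 672 and 710.3 in KO M1, 588 and 528 in KO M2 and 614 and 563 in KO M0. Both KO M1 sums were thus above those of the other conditions. The part of these markers in the Ccr7 values was not tested. The Ccr7 ligand Ccl19 was not called in any comparison and read between 39.96 and 45.02 on all 6 arrays.

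**Figure D2:**
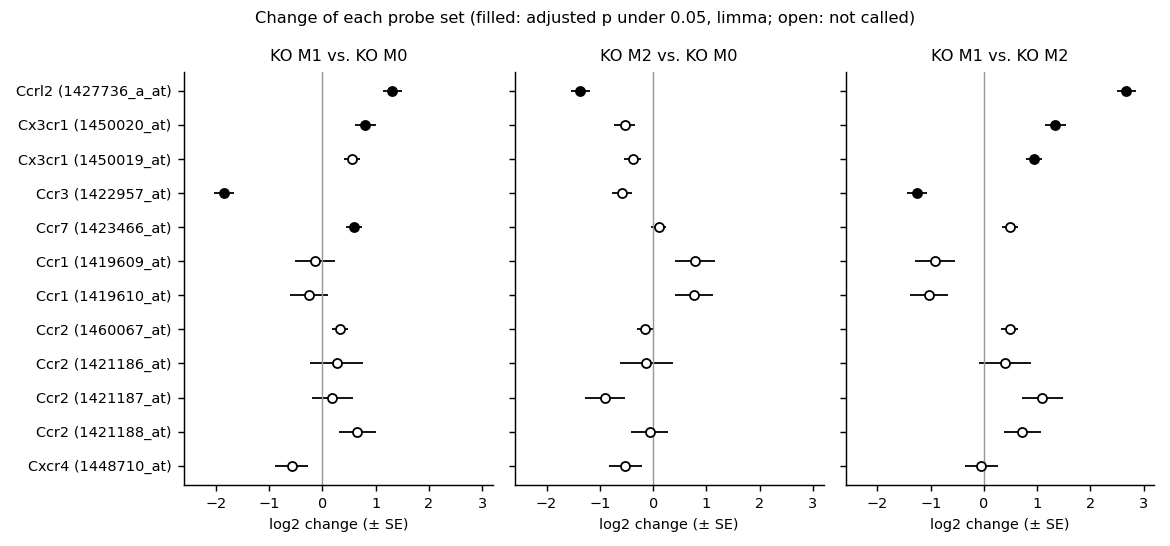
Log2 change of each receptor probe set, with its SE, in KO M1 vs. KO M0, KO M2 vs. KO M0 and KO M1 vs. KO M2; filled points had a limma adjusted p under 0.05. Ccrl2 is filled in all 3 panels, Ccr3 in both panels that include KO M1, and no Ccr1, Ccr2 or Cxcr4 point is filled.

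Ccr1, the receptor for Ccl3 and Ccl5, was highest in KO M2 and split between mice in KO M1. The brighter probe set (1419609_at) read 894 and 2441 in KO M1, 2955 and 2629.6 in KO M2 and 1705 and 1541 in KO M0. In KO M1, mouse 1 lay below and mouse 2 above both KO M0 values. The second probe set (1419610_at) read 34.3 and 88.9 in KO M1, 122 and 104 in KO M2 and 66.8 and 65 in KO M0, which repeats the split. KO M2 vs. KO M0 gave log2 changes of 0.78 ± 0.37 and 0.77 ± 0.36 (SE, n = 2), folds of 1.72 and 1.70, with limma adjusted p of 0.303 and 0.287.

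Those Ccr1 tests took their spread from all 3 conditions, the split KO M1 arrays included. With KO M2 and KO M0 alone in the fit, the same changes had an SE of 0.129 and 0.13 and were called, with limma adjusted p of 0.00662 and 0.00758. For KO M1 vs. KO M0 the change was -0.13 with a 95% interval of -0.99 to 0.72 on the brighter probe set. It turned to 0.59 without KO M1 mouse 1 (limma adjusted p = 0.0726) and to -0.86 without KO M1 mouse 2 (limma adjusted p = 0.0125). Either value sets a single KO M1 array against KO M0, with the spread of KO M2 and KO M0 alone, so the p leaves out the gap between the KO M1 mice.

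Ccr2, the Ccl2 receptor of inflammatory monocytes, gave no call on any of its 4 probe sets. The brightest (1460067_at) read 100 and 121 in KO M1, 87.9 and 70.7 in KO M2 and 87.8 and 86.9 in KO M0. Its KO M1 vs. KO M2 change was 0.48 ± 0.15 (SE, n = 2, limma adjusted p = 0.0811), and KO M1 vs. KO M0 was 0.33 with a 95% interval of -0.02 to 0.68. In the other 3 probe sets, KO M1 mouse 2 exceeded KO M1 mouse 1 by 3.95-fold, 2.53-fold and 2.40-fold, while the brightest differed by 1.21-fold.

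Probe set 1421186_at showed the widest gap, with 36.3 and 143 in KO M1, 54.5 and 55.1 in KO M2 and 59.4 and 60.6 in KO M0. Its KO M1 vs. KO M0 change of 0.27 (limma adjusted p = 0.83) became 1.26 without KO M1 mouse 1 (limma adjusted p = 0.0018) and -0.72 without KO M1 mouse 2 (limma adjusted p = 0.0177). The direction of this probe set thus depended on which KO M1 array was kept. As for Ccr1, these p-values rest on the spread of KO M2 and KO M0 alone and leave out the gap between the KO M1 mice. Probe set 1421187_at read 55.4 and 140.5 in KO M1, 32.9 and 51.9 in KO M2 and 80.1 and 75.1 in KO M0, with a KO M2 vs. KO M0 change of -0.91 ± 0.38 (SE, n = 2, limma adjusted p = 0.231). That change was called with KO M2 and KO M0 alone in the fit (limma adjusted p = 0.0246).

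Cxcr4, the Cxcl12 receptor, was not called in any comparison. It read 263 and 576 in KO M1, 436 and 375 in KO M2 and 635 and 533 in KO M0. The KO M1 values enclosed both KO M2 values, and all values of both stimulated conditions except KO M1 mouse 2 were below KO M0. The log2 change was -0.58 with a 95% interval of -1.28 to 0.12 in KO M1 vs. KO M0 (limma adjusted p = 0.344) and -0.53 with an interval of -1.23 to 0.18 in KO M2 vs. KO M0 (limma adjusted p = 0.42). Without KO M1 mouse 2 the KO M1 vs. KO M0 change was -1.14 (limma adjusted p = 0.00493), a single KO M1 array tested with the spread of KO M2 and KO M0 alone. Cxcl12 stayed below the array median on all arrays and was not called.

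The gap between the KO M1 mice was larger for these receptors than for most probe sets. In KO M1, 6 of the 12 receptor probe sets were over 2-fold apart between mice, all higher in mouse 2. These 6 belonged to Ccr1, Ccr2 and Cxcr4 only. In all, 10 of the 12 were higher in mouse 2, and the share of all probe sets higher in mouse 2 was not computed. In KO M2 and in KO M0, 0 of the 12 were over 2-fold apart. Of all probe sets, 0.961% were over 2-fold apart in KO M1, 0.266% in KO M2 and 0.109% in KO M0. The median absolute log2 gap of the receptors was 0.87 in KO M1, 0.19 in KO M2 and 0.08 in KO M0. Over all probe sets it was 0.16, 0.15 and 0.12. With 2 mice in a condition these gaps are a description and were not tested.

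**Figure D3:**
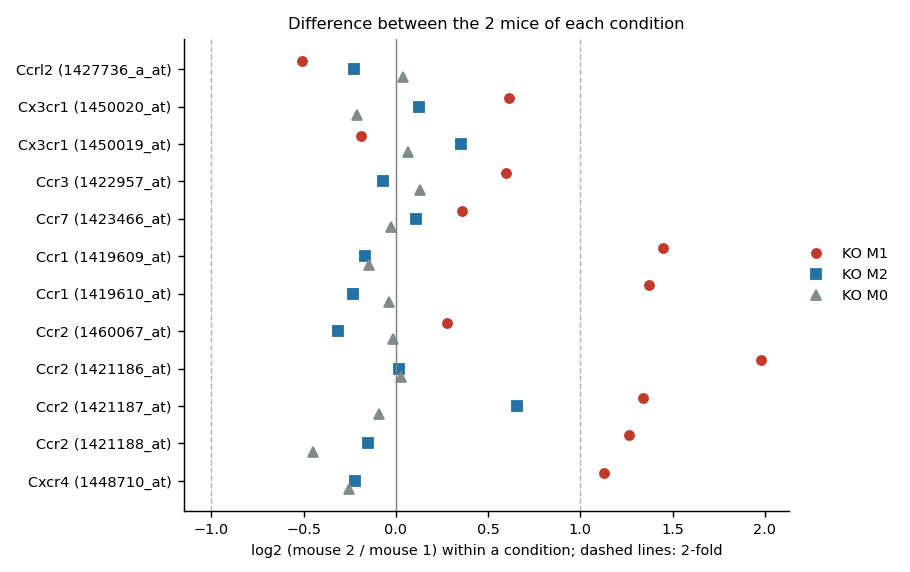
Log2 ratio of mouse 2 over mouse 1 within KO M1, KO M2 and KO M0 for each receptor probe set, with dashed lines at 2-fold. The 6 KO M1 points beyond the right line belong to Ccr1, Ccr2 and Cxcr4, and no KO M2 or KO M0 point lies beyond a dashed line.

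Of the genes within 2 places of a receptor on its chromosome, 20 were measured. Of these, 0 were called higher and 2 lower in KO M1 vs. KO M0, where 2.76% and 4.32% of all probe sets were. In KO M2 vs. KO M0, 0 were called higher and 1 lower, against 3.61% and 3.57%. In KO M1 vs. KO M2, 1 was called higher and 1 lower, against 5.31% and 7.63%. Mcm6, a subunit of the replicative helicase next but one to Cxcr4, read 569 and 462 in KO M1, 1012 and 1343 in KO M2 and 1813 and 1878 in KO M0. It fell by 1.85 on the log2 scale in KO M1 vs. KO M0 (limma adjusted p = 0.000464) and by 1.19 in KO M1 vs. KO M2 (limma adjusted p = 0.00208). Igfbp4, a binding protein of insulin-like growth factors next but one to Ccr7, read 1006 and 857 in KO M1, 908 and 617 in KO M2 and 2765 and 2620.5 in KO M0, and fell by 1.53 and 1.85 on the log2 scale in KO M1 and KO M2 vs. KO M0 (limma adjusted p = 0.00187 and 0.000767). Slc25a38, near Cx3cr1, was higher in KO M1 than in KO M2 by 0.53 (limma adjusted p = 0.0322), a call lost with the mouse block (adjusted p = 0.0589) and in 5 of the 6 fits that left out an array.

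In the RefSeq gene order (GRCm38.p6), Ccr1, Ccr1l1, Ccr3 and Ccr2 follow each other on chromosome 9, with Cxcr6 and Xcr1 on the other side of Ccr1. In this row Ccr3 fell in KO M1 vs. KO M0 while Ccr1, Ccr1l1 and Ccr2 gave no call. Xcr1 and Cxcr6 were below the array median on all arrays. Ccrl2 lies apart on chromosome 9 between Ltf and Lrrfip2, and Cx3cr1 between Xirp1 and Ccr8, and none of these 4 immediate neighbours was called in any comparison.

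Of 18 other chemokine receptor genes, 17 were measured and 10 of these were below the median on every array. In KO M1 vs. KO M0, 0 were called by limma, against 2.76% higher and 4.32% lower of all probe sets. At an unadjusted p under 0.05, 2 were higher and 2 lower there, against 9.84% and 10.5%. In KO M2 vs. KO M0, 0 were called higher and 1 lower, against 3.61% and 3.57%. In KO M1 vs. KO M2, 2 were called higher and 0 lower, against 5.31% and 7.63%. The lower one in KO M2 was Cxcr3, a receptor for interferon-induced chemokines, which read 75.4 and 67.1 in KO M2 and 196 and 144 in KO M0. It fell by 1.24 ± 0.17 on the log2 scale (SE, n = 2, limma adjusted p = 0.00383). Cxcr3 was also higher in KO M1 (102 and 122) than in KO M2, by 0.65 (limma adjusted p = 0.0423), a call lost with the mouse block (adjusted p = 0.0666) and without KO M1 mouse 2, KO M2 mouse 1 or KO M2 mouse 2.

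**Figure D4:**
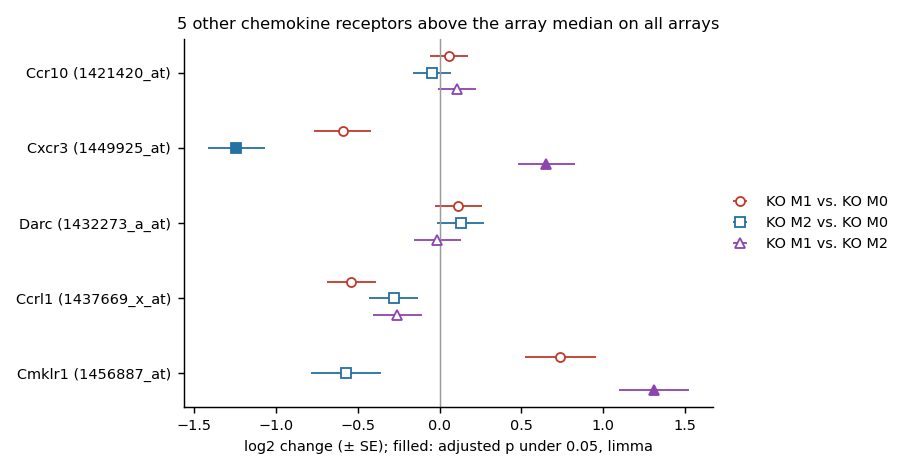
Log2 change with SE of 5 other chemokine receptor genes above the array median on all 6 arrays, in the 3 comparisons; filled points had a limma adjusted p under 0.05. Cxcr3 is filled in KO M2 vs. KO M0 and KO M1 vs. KO M2, and Cmklr1 in KO M1 vs. KO M2.

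Of 16 ligands of these receptors, 15 were measured. Of these, 3 rose and 0 fell in KO M1 vs. KO M0, against 2.76% and 4.32% of all probe sets. In KO M2 vs. KO M0, 3 rose and 0 fell, against 3.61% and 3.57%. In KO M1 vs. KO M2, 1 rose and 4 fell, against 5.31% and 7.63%. Ccl24, a ligand of Ccr3, had the largest change among them. It read 178 and 168 in KO M1, 3947 and 2952 in KO M2, and 71.9 and 69.7 in KO M0. Ccl24 rose in KO M2 vs. KO M0 by 5.59 ± 0.15 on the log2 scale (SE, n = 2, limma adjusted p = 7.68e-07), where Ccr3 gave -0.59, and in KO M1 vs. KO M0 by 1.29 (limma adjusted p = 0.00179), where Ccr3 fell by 1.84. The other eotaxin measured, Ccl11, was below the array median on all arrays and was not called.

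Ccl5, which binds Ccr1 and Ccr3, was raised in KO M1. It read 21017 and 19837.5 in KO M1, 4998 and 5068 in KO M2 and 6279 and 7619 in KO M0, a log2 change of 1.56 ± 0.13 in KO M1 vs. KO M0 (SE, n = 2, limma adjusted p = 0.00036). Ccl8 read 1081 and 1035 in KO M1, 4739.99 and 2610.03 in KO M2 and 200.03 and 179.8 in KO M0, so it rose under both stimuli, by 2.48 and 4.21 on the log2 scale (limma adjusted p = 0.000651 and 3.83e-05). Ccl7, a ligand of Ccr1, Ccr2 and Ccr3, rose in KO M2 vs. KO M0 by 1.86 (limma adjusted p = 0.00278), with 516 and 345 in KO M1, 1392 and 2121 in KO M2 and 428 and 525 in KO M0.

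The KO M1 mice also differed in several ligands, and not all in the direction of the receptors. Mouse 1 was the higher for Ccl2 (1365 against 634 in mouse 2), Ccl3 (1607 against 521), Ccl4 (2248 against 811) and Ccl12 (1009.9 against 219). Mouse 2 was the higher for Ccl6 (5236 against 1527.5 in mouse 1) and Ccl9 (11066 against 7256), as it was for Ccr1, Ccr2 and Cxcr4. None of these ligands was called in KO M1 vs. KO M0. Ccl6, a mouse ligand of Ccr1, fell by 2.08 ± 0.45 on the log2 scale in KO M1 vs. KO M2 (SE, n = 2, limma adjusted p = 0.017), a call lost without KO M2 mouse 1 or mouse 2 (adjusted p of up to 0.0963).

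**Figure D5:**
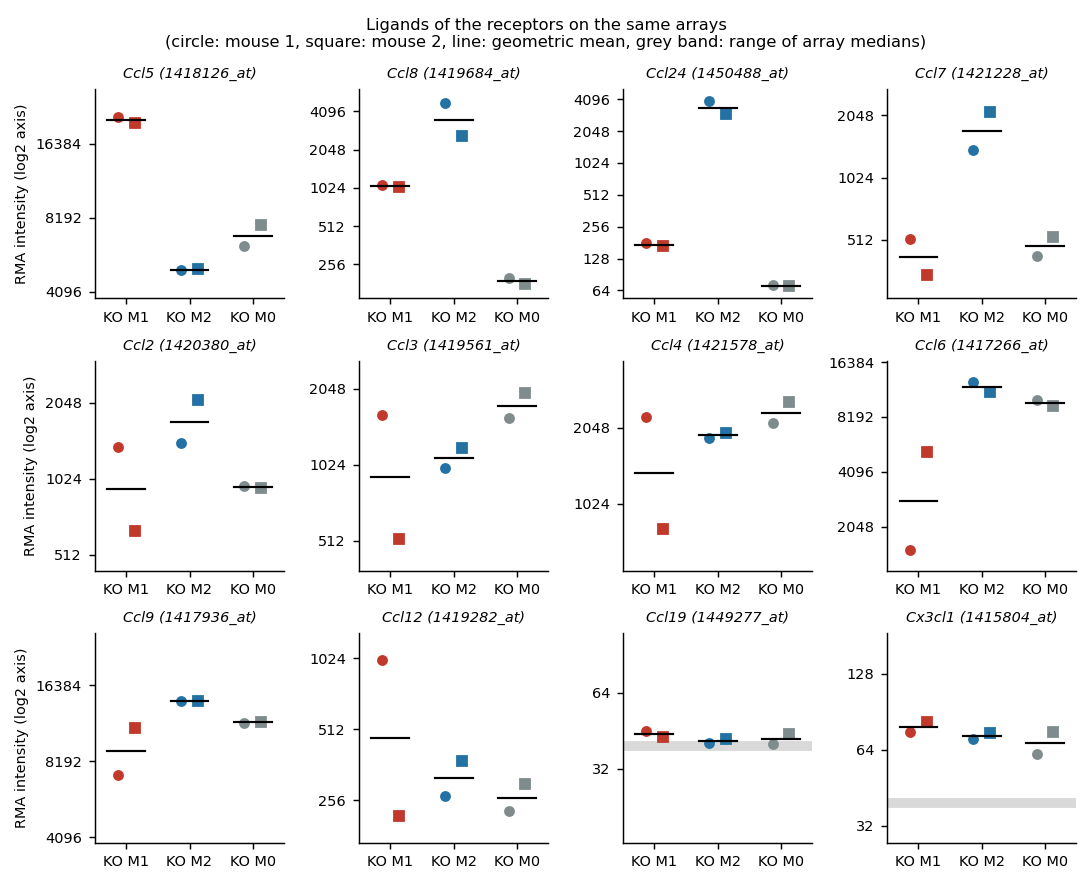
RMA intensity of 12 of the 15 measured ligands on log2 axes in KO M1, KO M2 and KO M0, drawn as in the plot of the receptors. Ccl5 is highest in both KO M1 arrays, Ccl24, Ccl8 and Ccl7 are highest in both KO M2 arrays, and Ccl2, Ccl3, Ccl4 and Ccl12 are higher in mouse 1 than in mouse 2 of KO M1.

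Inside the cell, chemokine receptors act through Gi proteins, are switched off by G protein receptor kinases and arrestins, and are limited by RGS proteins, which speed up the G proteins' return to the resting state. All 34 listed signalling genes were measured. In KO M1 vs. KO M0, 8 rose and 5 fell, against 2.76% and 4.32% of all probe sets. In KO M2 vs. KO M0, 3 rose and 8 fell, against 3.61% and 3.57%. In KO M1 vs. KO M2, 12 rose and 7 fell, against 5.31% and 7.63%. Among only the probe sets above the median intensity, those shares were 5.90% and 8.58%, 7.37% and 6.56%, and 10.2% and 15.1%. All 5 genes that fell in KO M1 vs. KO M0 were RGS genes, of 8 measured, while Rgs3, Rgs14 and Rgs19 were not called. Rgs18, Rgs1 and Rgs2 changed most and held whichever array was left out, whereas Rgs10 held in 4 and Rgs16 in 1 of the 6 such fits. Rgs18 read 102 and 139 in KO M1, 244 and 267 in KO M2 and 589 and 627 in KO M0, a log2 change of -2.35 ± 0.16 in KO M1 vs. KO M0 and -1.25 ± 0.16 in KO M2 vs. KO M0 (SE, n = 2, limma adjusted p = 0.000146 and 0.00257).

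Rgs1 read 256 and 397 in KO M1, 1119.7 and 1319 in KO M2 and 1409 and 1104 in KO M0. It fell by 1.97 ± 0.22 on the log2 scale in KO M1 vs. KO M0 (SE, n = 2, limma adjusted p = 0.00115) and was not called in KO M2 vs. KO M0. It was lower in KO M1 than in KO M2 by 1.93 ± 0.22 on the log2 scale (SE, n = 2, limma adjusted p = 0.000587). Jak2, a kinase shared with cytokine receptors, rose under both stimuli, with 1528 and 1038.5 in KO M1, 1198 and 1105 in KO M2 and 325 and 322 in KO M0. Its log2 changes were 1.96 in KO M1 vs. KO M0 and 1.83 in KO M2 vs. KO M0 (limma adjusted p = 0.000474 and 0.000656).

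Fgr, a Src-family kinase that acts downstream of several leukocyte receptors, was higher in KO M1 than in KO M2, as Ccrl2 was, by 2.08 on the log2 scale, Pik3r5, a subunit of PI3 kinase gamma, by 1.60, and Arrb2, an arrestin, by 1.42. In KO M2 vs. KO M0 the Gi partner Gng2 fell by 1.43 and Grk5, a receptor kinase, rose by 1.00, at 156 and 162 in KO M2 and 79.5 and 79.4 in KO M0. Gnai2, the main Gi protein of leukocytes, was not called in any comparison. Of the called signalling genes, 5 of 13 in KO M1 vs. KO M0, 4 of 11 in KO M2 vs. KO M0 and 15 of 19 in KO M1 vs. KO M2 stayed called whichever array was left out, and 11, 8 and 18 with the mouse block. The calls given for Rgs18, Rgs1, Jak2, Fgr, Pik3r5, Arrb2, Gng2 and Grk5 were among those that stayed under both.

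Genes with the profile most like each receptor were ranked by the root mean square difference of their centred log2 values over the 6 arrays, with 0 meaning the same profile. Ccrl2 was nearest to Pstpip2 (0.10), a cytoskeletal adaptor of macrophages, which read 538 and 428 in KO M1, 71.7 and 58.7 in KO M2 and 182 and 183 in KO M0. Cx3cr1 was nearest to Psen2 (0.11) and Tnnc1 (0.11), and Ccr3 to Smagp (0.12) and Depdc1b (0.13). Ccr1 was nearest to Inf2 (0.17), which had the KO M1 split as well, at 197 in mouse 1 and 433 in mouse 2, and Cxcr4 to Cd59a (0.13), at 138 and 242. Ccr2 was nearest to Traip (0.04) and Rere (0.04), and Ccr7 to Gabrd (0.06) and Olfr78 (0.07). This ranking is a description of 6 arrays.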

How the data were processed

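RNA from 6 samples was hybridised to Affymetrix mouse expression arrays. RMA, run by the authors in the GenePattern Expression File Creator, gave the deposited values, which are linear intensities per probe set. The merged table and the series' value table held the same values to within 5e-06, and the genome build of the annotation was not given in the sources used here. Log2 intensities of 45037 probe sets, after 64 control probe sets were left out, entered 1 fit over the 3 conditions (R 4.3.3, limma 3.58.1 with eBayes, 3 residual and 5.49 prior degrees of freedom, two-sided, unpaired as in the study's methods). P-values were Benjamini-Hochberg adjusted over all probe sets, and a call needed an adjusted p under 0.05. The script was tested on simulated data. Intervals are 95% from the moderated degrees of freedom, and 2 arrays per condition limit the precision.

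Of the probe sets in the table, 38544 carried 1 gene symbol, 859 several and 5634 none. A gene of the other lists, or a receptor where 1 probe set is needed, is represented by its brightest probe set. Named genes were all receptors, the nearest profiles, the chromosomal neighbours, and of each list up to 4 called genes per direction and comparison with the largest change; genes that were not called, the ligands split between mice among them, were named after their values were seen. Results for some genes are not reported here. Receptors and lists were chosen with earlier results of these data known. The probe set for Mir155 read between 9.33 and 10.8 on all arrays; its place relative to the deletion is not given, so it checks no label.

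The sample titles carry the numbers 1 and 2 in every condition, and the number was read as the mouse, which no source states. As a check, departures from the condition means were correlated between arrays with 1 mouse number, which gave r = -0.16 for KO M1 with KO M0, r = 0.21 for KO M2 with KO M0, and r = -0.21 for KO M1 with KO M2. The mouse number as a block, only the compared conditions in the fit, another prior, filters, rescalings, a pseudocount of 16, the methods' t-test and leaving out each array were tried as alternatives.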

Additional observations from a re-analysis of the deposited data

How the results depend on the processing

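With the mouse number as a block, the count of 3 receptor probe sets called higher in KO M1 vs. KO M0 became 1 (Ccrl2), and no other receptor call changed. That count became 1 with only the compared conditions in the fit, with a pseudocount of 16 and with a fold of at least 2. The methods' t-test, unadjusted, gave 1 as well, but this was the second Cx3cr1 probe set (1450019_at). Ccrl2 in KO M1 vs. KO M0 and the brighter Cx3cr1 probe set in KO M1 vs. KO M2 were not called by that t-test. After Benjamini-Hochberg adjustment the t-test gave 0 in every comparison and direction. In KO M2 vs. KO M0, 0 higher and 1 lower became 2 and 4 with only the compared conditions in the fit, against 4.74% and 4.95% of all probe sets. By the unadjusted t-test they became 2 and 3, against 7.04% and 7.28%. Among only the probe sets above the median intensity, where Ccr3 was not tested, the counts called lower in KO M1 vs. KO M0 and in KO M1 vs. KO M2 were 0. Crossing the KO M1 mouse numbers in the block, an alternative chosen after seeing the data because their deviations correlated below 0, gave 2 called lower in KO M1 vs. KO M2, against 8.97% of all probe sets, and 4 called higher in KO M1 vs. KO M0, against 3.75%. Whether a number marks 1 animal in all conditions is not stated, so the block may pair unrelated arrays. Leaving out 1 array gave counts higher and lower of 1 to 5 and 1 to 5 in KO M1 vs. KO M0, 0 to 2 and 1 to 4 in KO M2 vs. KO M0, and 3 to 7 and 1 to 4 in KO M1 vs. KO M2.

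No called log2 change turned its sign under any alternative. In the following counts, receptors entered whether called or not. Genes of the other lists and chromosomal neighbours entered only where called, so they could lose a call but not gain one. The counts lost and gained thus cannot be set against each other. The alternatives were for single probe sets, and some for a gene's median over its probe sets. Of all 2260, 1848 kept direction and, where tested, side of the threshold, 363 lost a call, 34 gained one and 15 turned the direction of a change that was not called. With 1 array left out, these changes in KO M1 vs. KO M0 ran from -0.86 to 0.59 and from -0.94 to 0.43 for Ccr1 (1419609_at and 1419610_at), and from -0.72 to 1.26 and from -0.48 to 0.86 for Ccr2 (1421186_at and 1421187_at). In KO M1 vs. KO M2 they ran from -0.59 to 1.39 for Ccr2 1421186_at and from -0.62 to 0.51 for Cxcr4, and in KO M2 vs. KO M0 from -0.29 to 0.16 and from -0.30 to 0.0097 for Ccr2 1421188_at and 1460067_at. The t-test's scale gave 0.0391 for Ccr1 1419609_at in KO M1 vs. KO M0 and 0.0494 for Cxcr4 in KO M1 vs. KO M2, which was 0.0242 after a second quantile normalization. Centring arrays on their medians turned the 1624 probe sets higher and 1610 lower of all in KO M2 vs. KO M0 (50.2% higher) into 2028 and 1233 (62.2% higher), with the receptor counts as before. The causes were not tested.

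In KO M1, the gap between 2 mice limits Ccr1, Ccr2 and Cxcr4. Intensities below the array median limit Ccr7, Ccr3 in KO M1 and the second Cx3cr1 probe set. They also limit KO M1 mouse 1 (array median 39.6) on Ccr1 1419610_at (34.3) and Ccr2 1421186_at (36.3). Ccr2 1421188_at was above the array median on 1 array only, and Ccr2 1421187_at was below it in KO M2 mouse 1 (32.9). Conditions with 2 arrays each give no check of the gap or of these low intensities.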

Other observations

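Marker lists of the cell types a marrow culture could hold were called to different degrees. Of all probe sets, 2.76% were called higher and 4.32% lower in KO M1 vs. KO M0. The shares were 3.61% and 3.57% in KO M2 vs. KO M0, and 5.31% and 7.63% in KO M1 vs. KO M2. In KO M2 vs. KO M0, 4 of the 10 macrophage markers fell and 0 rose, led by Fcgr1, the high-affinity IgG receptor, whose KO M2 arrays read 474 and 327, against 4315 and 3783 for KO M0, a log2 change of -3.36 ± 0.23 (SE, n = 2, limma adjusted p = 0.000103). Cd14, a co-receptor for LPS, fell by 1.57 in the same comparison (limma adjusted p = 0.00406). The other calls, Emr1 and Mertk, held in 4 and 2 of the 6 fits that left out an array. Zbtb46, a dendritic cell factor, was called higher in KO M2 vs. KO M0 (limma adjusted p = 0.0389), a call lost with the mouse block (adjusted p = 0.0691) and in 4 of these 6 fits. In KO M1 vs. KO M0, 1 macrophage marker rose (Itgam) and 0 fell. Of 8 measured neutrophil markers, 1 rose in KO M1 vs. KO M0 (S100a8, at 293 and 164 for KO M1 against 91 and 72.3 for KO M0), and of 10 T and NK cell markers, 1 fell (Il7r, at 249 and 632 for KO M1 against 2052 and 1640.2 for KO M0). Of 8 fibroblast markers 1 rose (Dcn), and none of 6 B cell or 8 mast cell and basophil markers was called in KO M1 vs. KO M0. Of these KO M1 vs. KO M0 calls, Itgam held in 5, S100a8 and Il7r in 4 and Dcn in 1 of the 6 fits that left out an array. In KO M1 vs. KO M2, 5 macrophage, 3 monocyte, 2 neutrophil, 1 dendritic cell, 1 B cell and 1 fibroblast marker were higher, and 1 macrophage (Cebpa), 1 dendritic cell (Zbtb46) and 1 T and NK cell marker (Il7r) were lower. The dendritic cell calls there (Fscn1 higher, Zbtb46 lower) were lost with the mouse block (adjusted p = 0.065 and 0.0628) and in all 6 fits that left out an array. Camp, a neutrophil marker, Cd79b, a B cell marker, and Dcn held in 1 of the 6, and Cebpa in 5.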
